A study of Mus musculus with 17 samples.

Results

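The hippocampus of CBP-ifKO mice that received saline alone and were never kindled was compared with that of control littermates treated in the same way, to ask which genes of the resting adult hippocampus need the acetyltransferase CBP. The members were the 3 libraries labelled CBP-ifKO Sal, set against the 3 libraries labelled Control Sal, out of 17 libraries analysed in the series, and each library held the hippocampal RNA of 1 male C57BL/6J mouse between 3 and 6 months of age. CBP-ifKO mice carried floxed Crebbp alleles and the Camk2a-creERT2 transgene, and tamoxifen given to the adult animal removed the acetyltransferase domain of CBP from forebrain excitatory neurons, so that interneurons and glia kept the intact gene. Control mice received tamoxifen as well and lacked creERT2 according to the study's methods, although their labels name the transgene. The other 11 libraries came from mice called kindled here, which were given repeated subconvulsive doses of the GABA receptor blocker pentylenetetrazol (PTZ). Their last injection was saline (PTZ0, 3 Control and 3 CBP-ifKO) or PTZ 45 min before dissection (PTZ45, 2 Control and 3 CBP-ifKO). These libraries were used only to see whether the Sal differences were found again in other animals. The study reports that all controls came to have seizures under these doses, whereas no CBP-ifKO mouse entered the progressive seizure stage. Seizure history thus differed between the genotypes in PTZ0 and PTZ45.

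CBP, the product of Crebbp, is a coactivator that binds the transcription factor CREB and other activators and adds acetyl groups to histones at enhancers and promoters. Its close relative p300, the product of Ep300, shares this activity. In hippocampal neurons CREB binds the cAMP response element, and genes for neuropeptides, neurotrophins and immediate early factors are its classical targets. The hippocampal circuit runs from dentate granule cells to CA3 pyramidal cells and on to CA1, with CA2 between these fields and mossy cells of the hilus projecting back to the dentate gyrus, and all of these are excitatory neurons in which Camk2a-driven recombinases can act.

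Exonic reads numbered 9998091 to 15512418 in the Control Sal libraries and 5831992 to 18735643 in the CBP-ifKO Sal libraries. The values below are counts per gene divided by DESeq2 size factors (normalized counts), log2 fold changes are CBP-ifKO Sal over Control Sal with their standard error (SE), and a gene was called when the DESeq2 Wald test gave a Benjamini-Hochberg adjusted p under 0.05. Choroid plexus transcripts marked 1 library of each genotype. Ttr, the transthyretin gene of the choroid plexus, stood at 9791 in Control Sal 2 and at 40502 in CBP-ifKO Sal 1, against 126 to 322 in the other 4 libraries. All Control Sal libraries were sequenced in lane 3 and all CBP-ifKO Sal libraries in lane 4, so that lane and genotype cannot be told apart within this comparison. The fits with lane as a term given below took in all treatments and assumed that both genotypes respond to treatment alike.

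The targeted gene was lower in every mutant mouse. Crebbp (GRCm38, chr16:4081328-4213997, minus strand) stood at 1824, 2149 and 2415 in the Control Sal mice and at 1337, 1284 and 1084 in the CBP-ifKO Sal mice. The groups did not overlap, and mutants averaged 58.0% ± 6.27 (SD, n = 3) of the mean of the controls, with a log2 fold change of -0.79 ± 0.11 (adjusted p = 2.4e-09). Ep300 was not called, with 955, 1262 and 1318 in controls, 1546, 1592 and 1210 in mutants and a log2 fold change of 0.29 ± 0.13 (adjusted p = 0.316), though it was called higher without CBP-ifKO Sal 3 and with genotype over all treatments without lane. Reads assigned to Esr1, the oestrogen receptor gene that supplies the ERT2 part of the recombinase, were 49.2 to 59.2 in controls and 703 to 941 in mutants. Arsi, which lies on the DNA of the Camk2a-creERT2 transgene, went from 7.79 to 16.3 in controls to 72.6 to 73.9 in mutants. Camk2a itself was not called, with 17925, 24045 and 25048 in controls and 23027, 27384 and 24721 in mutants (log2 fold change 0.16 ± 0.11).

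More genes were lower than higher in the mutants. Among the 15004 genes that received an adjusted p, 266 were called lower (1.77%) and 40 were called higher (0.267%). Most changes were modest: the median log2 fold change was -0.47 among the lower genes, a decrease of 27.7%, and 187 of the 266 changed by less than 1.5-fold. Only 24 of the lower genes and 7 of the higher genes changed by 2-fold or more. Over all tested genes the median log2 fold change was 0.00 to 2 decimals and 50.4% lay below 0. In 265 of the 266 lower genes (all but Ptpru, a receptor phosphatase gene) all 3 mutants lay below all 3 controls, an order that 11.1% of all tested genes showed, and all 40 higher genes showed the opposite order, which 10.1% of tested genes showed. Protein-coding genes made up 257 of the lower and 34 of the higher calls.

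**Figure D1:**
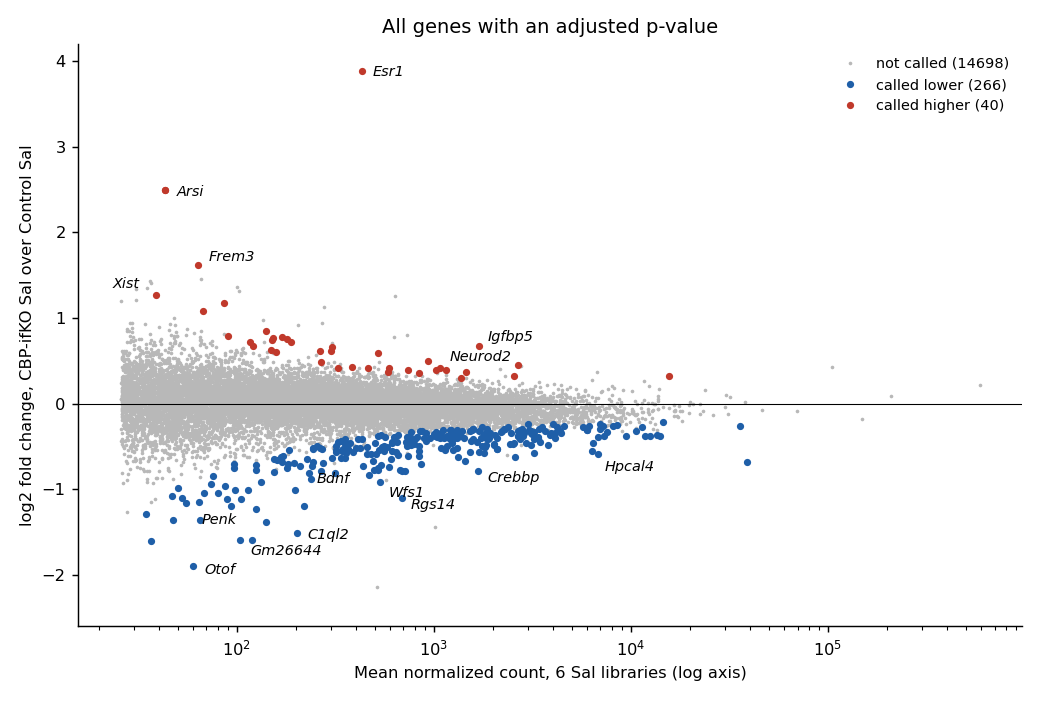
Each point is 1 of the 15004 genes with an adjusted p; the horizontal axis is the mean normalized count over the 6 Sal libraries (log axis) and the vertical axis the log2 fold change of CBP-ifKO Sal over Control Sal. The 266 genes called lower (blue) lie below 0 over the whole range of levels, while the 40 called higher (red) are led by Esr1 at 3.89, followed by Gm6472 and Arsi, each at 2.49.

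Setting aside genes that averaged under 50 normalized counts, the largest decrease was in Otof (chr5:30367062-30461932), which codes for the calcium sensor otoferlin of vesicle release. Otof read 103, 92.3 and 85.9 in controls and 30.1, 35.3 and 14.04 in mutants, a log2 fold change of -1.90 ± 0.31 (adjusted p = 3.91e-07). Next came a pair of transcripts known only by their database names. Gm26644 (chr19:44685811-44695460) was at 154 in each of the 3 controls and at 50.6, 64.3 and 43.6 in mutants (-1.60 ± 0.22), and 4921539H07Rik (chr3:58117053-58167616) went from 143 to 233 in controls to 55.4 to 66.6 in mutants (-1.59 ± 0.23). The exons of 4921539H07Rik overlap those of a gene on the other strand, and whether counting used strand is not given in the sources used here, so that reads of such pairs cannot be told apart. The same holds for Amz1, Bdnf, Penk, Camk4, Kcnh3, Gabra5, Junb, Psd3, Syn2, Sv2b, Ddn, Unc5c, Efna3, Epha10, Dio2, Cast, Spata1, Tep1, Cpne9 and Prox1 among the genes described here. For Otof, Gm26644 and 4921539H07Rik the highest mutant lay well below the lowest control.

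Further down the list of the 12 largest decreases stood secreted proteins of several kinds. C1ql2 (-1.52 ± 0.19) is described with the synapse organisers below, and Grp (-1.38 ± 0.20) and Penk (-1.24 ± 0.20) with the neuropeptides. The Wnt ligand gene Wnt4 fell from 77.6 to 106 in controls to 30.3 to 43.6 in mutants (-1.36 ± 0.27, adjusted p = 1.4e-04), and Wnt9a fell from 115 to 140.4 to 44.8 to 68.5 (-1.19 ± 0.23, adjusted p = 6.09e-05). Serpina3n, a serine protease inhibitor gene that reactive astrocytes are known to express, was at 309, 325 and 284 in controls and at 109.5, 135 and 159 in mutants (-1.19 ± 0.17, adjusted p = 1.81e-09). The remaining members were Cdhr1, a cadherin-related gene (-1.16 ± 0.29), Epop, which codes for a partner of Polycomb complexes (-1.16 ± 0.28), and the metallopeptidase gene Amz1 (-1.12 ± 0.23). Absence of overlap between mutant and control values was a condition for choosing these 12, and so is not a result for them.

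**Figure D2:**
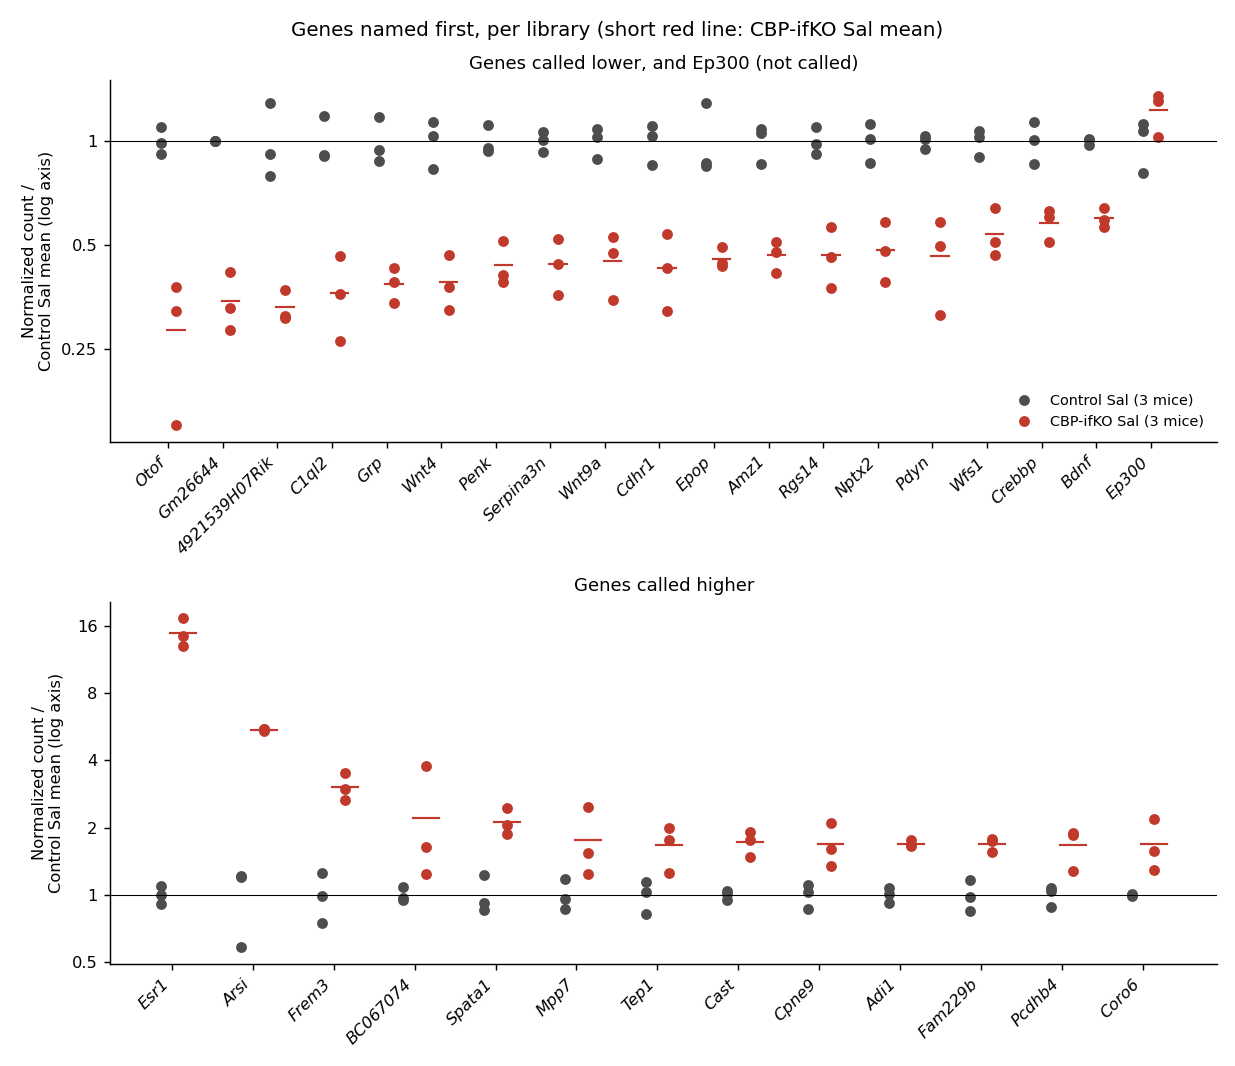
Normalized count of each mouse divided by the Control Sal mean of that gene (log axis), for the genes fixed by name and the 12 largest changes in each direction, with Rgs14 and Wfs1 added; grey points are the 3 Control Sal mice, red points the 3 CBP-ifKO Sal mice and the short red line their mean. The mutants lie below all controls for every gene of the upper panel except Ep300 (not called). For the 12 largest changes in each direction, absence of overlap was a condition of choice. The lower panel starts with Esr1, where mutants read 703 to 941 against 49.2 to 59.2 in controls.

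Neuropeptide precursor genes contained some of the strongest losses, although most of the list did not pass the test. Of 16 tested neuropeptide and granin precursor genes, 4 fell (Grp, Penk, Pdyn and Cck), none rose, and 12 were not called, whereas 1.77% of all tested genes were called lower. The list's median log2 fold change was -0.11, against 0.00 over all genes. Penk, the proenkephalin gene (chr4:4133531-4138819), was at 166, 162 and 194 in controls and at 71.1, 89.2 and 68.0 in mutants (-1.24 ± 0.20, adjusted p = 2.29e-07). Pdyn, the prodynorphin gene of granule cell axons, was at 94.3, 96.0 and 87.7 in controls and at 46.1, 29.1 and 54.0 in mutants (-1.04 ± 0.26, adjusted p = 0.00637). Grp, the gastrin-releasing peptide gene, went from 177 to 238 in controls to 68.7 to 86.5 in mutants (adjusted p = 3.93e-09). Cck, the cholecystokinin gene that both pyramidal cells and a class of interneurons use, went from 1625 to 1911 to 979 to 1431 (-0.57 ± 0.12, adjusted p = 5.63e-04). Vgf, a granin gene, did not pass, at -0.36 ± 0.12 (adjusted p = 0.108), and neither did the interneuron peptide gene Sst, at -0.31 (adjusted p = 0.104). Among 7 genes of propeptide processing, only Pcsk1, the gene of prohormone convertase 1, fell, from 504 to 635 in controls to 331 to 402 in mutants (-0.59 ± 0.13, adjusted p = 0.00114), a call lost without Control Sal 1.

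Bdnf was the 1 gene called among 6 tested neurotrophin and receptor genes, where 1.77% of all tested genes were called lower. Bdnf (chr2:109674700-109727007) codes for brain-derived neurotrophic factor, the activity-regulated ligand of the receptor TrkB. Its counts were 557, 550.4 and 535 in controls and 324, 309 and 350.3 in mutants, so that the narrow groups were separated by a wide gap (-0.73 ± 0.12, adjusted p = 1.22e-07). Ntrk2, the gene of TrkB, was at -0.06 ± 0.08 and was not called (adjusted p = 0.904).

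Secreted organisers of synapses were represented by 3 called genes among 12 tested, with a median of -0.27 for the list. The share called lower over all tested genes was 1.77%. C1ql2 (chr1:120340582-120343174), a C1q-like protein that granule cells secrete onto CA3 neurons to cluster kainate receptors, was at 269, 348 and 268 in controls and at 77.5, 137 and 106 in mutants (-1.52 ± 0.19, adjusted p = 1.89e-11). Nptx2, the activity-induced pentraxin gene (chr5:144545902-144557478), which binds AMPA receptors from outside the cell, was at 93.5, 109.6 and 121 in controls and at 42.3, 51.9 and 62.8 in mutants (-1.05 ± 0.25, adjusted p = 0.00263). Lgi3 fell less (-0.44 ± 0.13, adjusted p = 0.0301) and lost its call in 9 of 15 alternatives. The count of 3 was 1 without CBP-ifKO Sal 1, Control Sal 2 or Control Sal 3 and 2 by edgeR. The constitutive pentraxin gene Nptx1 was not called and lay above 0, at 0.17 ± 0.09.

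Genes of calcium and calmodulin signalling were among those that fell. Of 30 tested members 12 fell and none rose, whereas 1.77% of all tested genes were called lower. Of the list, 26 of the 30 lay below 0 and the median was -0.25. Camk1g, a calmodulin-dependent kinase of dendrites, went from 268, 266 and 254 in controls to 120.4, 154 and 128 in mutants (-1.01 ± 0.16, adjusted p = 1.54e-07). Camkk2, the kinase that activates it and CaMKIV, went from 1537 to 1668 to 926 to 1121 (-0.62 ± 0.10, adjusted p = 9.42e-08), and its sister gene Camkk1 fell as well (-0.50). Camk4, whose product phosphorylates CREB, went from 837 to 906 to 602 to 678 (-0.45 ± 0.10, adjusted p = 7.3e-04). Hpcal4, a neuronal calcium sensor gene, was at 7795, 8026 and 8633 in controls and at 5163, 5441 and 5660 in mutants (-0.59 ± 0.08, adjusted p = 1.89e-11). The kinase-like gene Camkv fell (-0.55 ± 0.11), as did Camk2n1, an inhibitor of CaMKII (-0.40 ± 0.08), Cabp7 (-0.48), Caln1 (-0.34) and Ppp3r1, a regulatory subunit of calcineurin (-0.26). Camkk1, Cabp7, Caln1 and Ppp3r1 were named after their values were seen. The count of 12 depended on the fit, ranging from 7 to 16 when 1 library was left out and standing at 6 by edgeR, 5 with lane as a term and 3 without the libraries that held choroid plexus RNA.

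Ion channel genes fell in part of their lists. Among 53 tested potassium channel genes, 11 fell and none rose (median -0.19, and 44 below 0), against 1.77% called lower and 50.4% below 0 over all tested genes. Kcnj4, an inward rectifier gene, went from 656 to 822 in controls to 324 to 521 in mutants (-0.74 ± 0.15, adjusted p = 2.61e-04). Kcnh3 (-0.62 ± 0.13) codes for a slowly activating voltage-gated channel of the forebrain, Kcnv1 (-0.56 ± 0.11) and Kcnf1 (-0.45 ± 0.11) for silent subunits that modify other channels, and Kcnip3 (-0.57 ± 0.11) and Kcnip2 (-0.38 ± 0.09) for calcium-binding partners of A-type channels. Kcna4, Kcnn2, Kcnab1, Kcnq5 and Kcnma1 fell by smaller amounts and were named after their values were seen. Of 26 sodium, calcium and HCN channel genes, Cacna1g, a T-type calcium channel gene, fell from 554, 628 and 682 to 348, 405 and 349 (-0.77 ± 0.12, adjusted p = 1.22e-07), and Scn4b, a sodium channel beta subunit gene, fell from 199.5 to 217 to 122 to 141 (-0.69 ± 0.17), a call lost in 6 of 15 alternatives. That count of 2 ranged from 1 to 5 without 1 library. Without 1 library the potassium channel count ranged from 4 to 13, and it was 1 without the libraries that held choroid plexus RNA.

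Some receptor genes for neuromodulators fell. None of 25 AMPA, NMDA and kainate receptor genes passed the DESeq2 test in Sal (median -0.06), where 1.77% of all tested genes were called lower; 5 had an unadjusted p under 0.05 and edgeR called 0. Of the same genes, 4 were called lower in PTZ0 and 2 in PTZ45. Among 23 receptor genes for serotonin, dopamine, noradrenaline and acetylcholine, 4 fell: Htr2a, the 5-HT2A receptor gene, from 303 to 358 to 183 to 217 (-0.79 ± 0.15, adjusted p = 1.95e-05), Htr4 (-0.64 ± 0.14), Htr1a (-0.52 ± 0.13) and Chrm5, the M5 muscarinic receptor gene, at a low level (-1.29 ± 0.37). The count of 4 was 2 without Control Sal 1 or Control Sal 3, 2 by edgeR and 1 without the libraries that held choroid plexus RNA. Among 18 neuropeptide receptor genes, Sstr3 (-0.64 ± 0.14) and Sstr1 (-0.76 ± 0.22), which code for somatostatin receptors, and Npy2r, the Y2 receptor gene (-0.39 ± 0.11), fell. The count of 3 was 1 or 2 without any 1 library and 1 by edgeR, and Sstr1 lost its call in 11 and Npy2r in 10 of 15 alternatives. That list leaned lower as a whole, with 17 of 18 members below 0 and a median of -0.36. Gabra5, the GABA-A receptor subunit of hippocampal tonic inhibition, was the 1 called gene of 14 GABA receptor genes, at 2428, 2519 and 2423 in controls and 1532, 1737 and 1853 in mutants (-0.53 ± 0.09, adjusted p = 1.17e-06). Grm3 was the 1 called gene of 7 metabotropic glutamate receptor genes (-0.39 ± 0.10), a call lost in 8 of 15 alternatives.

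Some vesicle, scaffold, adhesion and axon guidance genes fell, where 1.77% of all tested genes were called lower. Of 42 vesicle and release genes 7 fell: Otof, the vesicle glycoprotein genes Sv2c (-0.64 ± 0.14) and Sv2b (-0.33 ± 0.07), Cplx2, a complexin gene that went from 11251 to 12459 to 8684 to 9846 (-0.33 ± 0.08), Syt17 (-0.44 ± 0.11), Syn2 (-0.30 ± 0.07) and Rims3, named after its value was seen. Of 23 postsynaptic scaffold genes 2 fell, Psd3, at 12660 to 13604 in controls and 9987 to 10400 in mutants (-0.38 ± 0.07, adjusted p = 8.23e-06), and the dendritic gene Ddn (-0.37 ± 0.10), whose call was lost in 6 of 15 alternatives, edgeR among them. Of 23 synaptic adhesion genes only Cntnap5a fell (-0.34 ± 0.09), a call lost in 8 of 15 alternatives, edgeR among them. Axon guidance genes contributed 6 decreases among 52, with Sema3e leading by adjusted p: 1515, 1445 and 1506 in controls and 999.9, 998 and 1074 in mutants (-0.54 ± 0.09, adjusted p = 1.85e-07). The others were Sema7a (-0.52), the ephrin genes Efnb3 (-0.55) and Efna3 (-0.54), the Eph receptor gene Epha10 (-0.58) and the netrin receptor gene Unc5c (-0.29). The axon guidance count was 2 without Control Sal 2, 3 by edgeR and 1 with lane as a term, and the vesicle count was 3 without Control Sal 2, 3 by edgeR and 2 with lane as a term.

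Some activity-regulated signalling genes fell in resting mutants, and most did not pass the test, with 1.77% of all tested genes called lower. Of 20 immediate early genes 19 lay below 0, with a median of -0.36, yet only Junb, an AP-1 subunit gene (219.7, 261 and 245 against 122, 149 and 178; -0.69 ± 0.18, adjusted p = 0.00667), and Btg2, an antiproliferative gene (174, 234 and 219 against 128, 127 and 152; -0.61 ± 0.18, adjusted p = 0.031), were called. Neither call was made by edgeR, and neither held without CBP-ifKO Sal 1, Control Sal 2 or Control Sal 3. Arc was at 708, 802 and 1011 in controls and at 569.5, 712 and 780.4 in mutants (-0.30 ± 0.14, adjusted p = 0.393), and Fos and Npas4 were too low and too variable in these unstimulated mice to be compared closely (28.1 to 62.4 against 26.9 to 34.0 for Fos, and 28.1 to 75.9 against 30.3 to 34.0 for Npas4). Dusp4, a MAP kinase phosphatase gene, was the 1 called gene of 9 in its family (-0.63 ± 0.18), a call lost in 8 of 15 alternatives, edgeR among them. Rgs4, a regulator of G protein signalling, went from 1607 to 2035 in controls to 1063 to 1197 in mutants (-0.67 ± 0.11, adjusted p = 1.77e-07).

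Genes of excitatory identity, acetylation and the CREB family were examined next, against shares over all tested genes of 1.77% called lower and 0.267% called higher. Of 23 excitatory neuron transcription factor genes, none fell and Neurod2 rose slightly (799, 982 and 989 against 1047, 1287 and 1358; 0.41 ± 0.12, adjusted p = 0.0297), a call that edgeR did not make. Of 11 markers of all excitatory neurons, Neurod2 rose and Nrn1, the gene of the growth-associated protein neuritin, fell (-0.38 ± 0.11, adjusted p = 0.0373; call lost in 10 of 15 alternatives, edgeR among them), while Slc17a7, their vesicular glutamate transporter gene, was at 0.06 ± 0.09 and was not called. Among 28 acetyltransferase and deacetylase genes Crebbp was the only one called (list median 0.04). None of 14 genes of the CREB family and its coactivators was called by DESeq2 or edgeR (median 0.01), and 1 had an unadjusted p under 0.05.

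**Figure D3:**
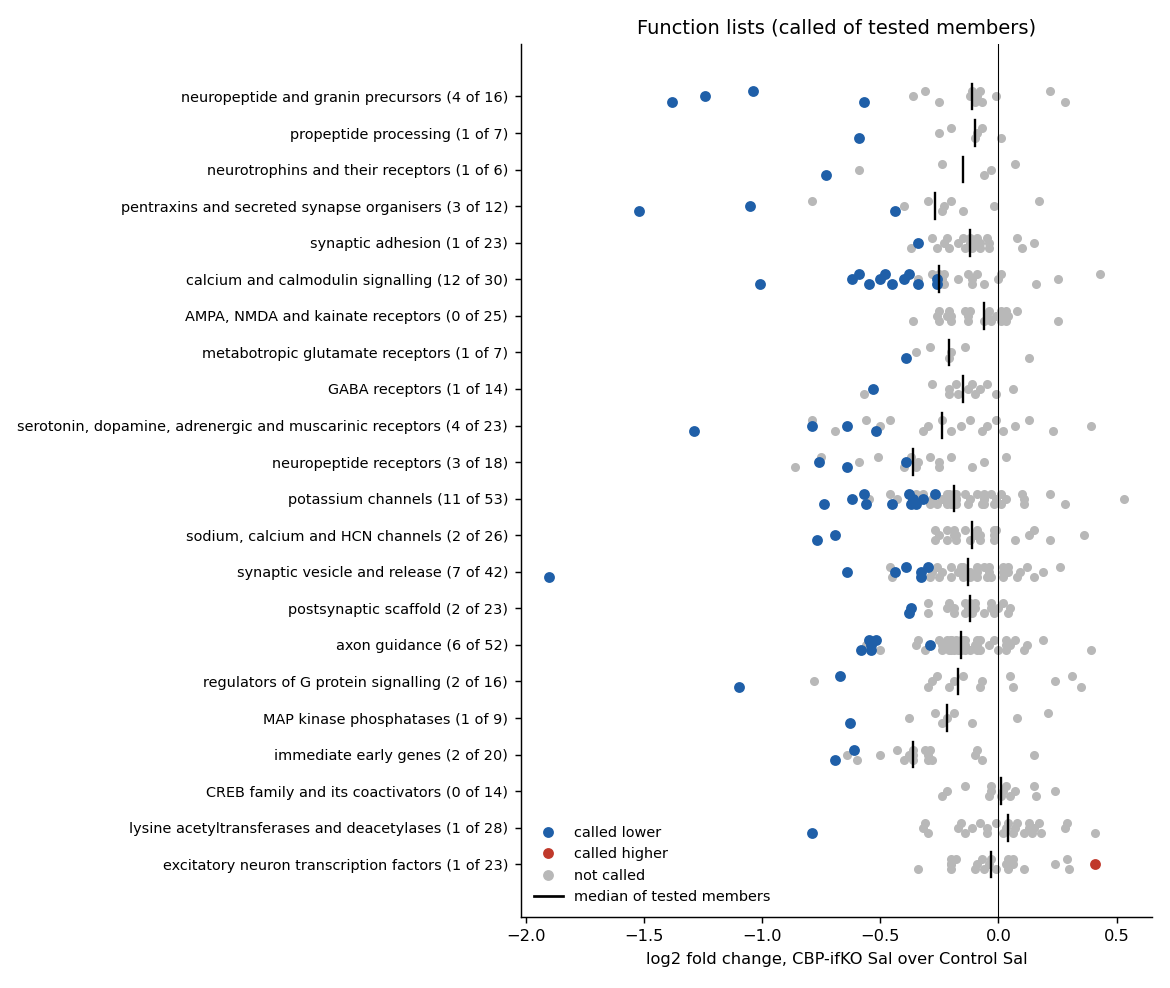
Log2 fold change of every tested member of the 22 function lists (1 point per gene; blue called lower, red called higher, grey not called; black bar, list median). The calcium and calmodulin list holds 12 blue points of 30, the glutamate receptor list none of 25, and the medians of the last 3 lists lie between -0.03 and 0.04.

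By neuron type, some markers of CA1, CA2, mossy and granule cells fell, and no CA3 marker was called. In whole tissue, fewer cells of a type and less RNA per cell cannot be told apart. Over all tested genes, 1.77% were called lower and 50.4% lay below 0. Of 12 tested CA1 markers 4 fell and 11 lay below 0 (median -0.35). Wfs1, the wolframin gene of the endoplasmic reticulum (chr5:36966104-36989205), was at 709.8, 620.5 and 740.4 in controls and at 323, 442 and 352 in mutants (-0.92 ± 0.13, adjusted p = 1.15e-09). Fibcd1 (-0.53 ± 0.11, adjusted p = 1.55e-04), Mpped1 (-0.43 ± 0.11, adjusted p = 0.00777) and the G protein-coupled receptor gene Gpr161 (-0.32 ± 0.10, adjusted p = 0.0419) also fell. The summed level of the CA1 list was 11400 to 12268 in controls and 8648 to 9603 in mutants. The CA1 count was 2 without CBP-ifKO Sal 1, Control Sal 2 or Control Sal 3, 7 without CBP-ifKO Sal 3, 2 by edgeR and 1 with lane as a term.

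Of 8 tested CA2 markers 2 fell. Rgs14 (chr13:55369732-55384687), a signalling scaffold known for restraining plasticity in CA2, was at 862, 1031 and 921 in controls and at 351, 434 and 528 in mutants (-1.10 ± 0.14, adjusted p = 4.59e-12). Necab2, a calcium-binding protein gene, was at 563 to 662 in controls and 327 to 454 in mutants (-0.67 ± 0.13, adjusted p = 7.24e-05). The other 6 tested CA2 markers were not called, and the list's median was -0.42. Without the libraries that held choroid plexus RNA the count of 2 was 1, because Necab2 lost its call.

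Of 15 tested dentate granule cell markers 2 fell and 10 lay below 0 (median -0.13). C1ql2 and the channel gene Trpc6, at 817, 896 and 837 in controls and 472, 496 and 524 in mutants (-0.78 ± 0.10, adjusted p = 1.48e-10), fell. The other 13 were not called, among them the identity factor Prox1 (0.30 ± 0.11, adjusted p = 0.143) and Calb1 (0.03 ± 0.08). The summed level of the granule cell list overlapped between the groups, at 14129 to 16565 in controls and 14749 to 15463 in mutants. Of 6 tested mossy cell markers, Calb2, the calretinin gene (346, 271 and 284 against 230.0, 191 and 128; -0.72 ± 0.19), and Ajap1 (-0.47 ± 0.12) fell, of which neither was called when any 1 control was left out. None of 10 CA3 markers was called by DESeq2 or edgeR, and 1 had an unadjusted p under 0.05; Grik4, a kainate receptor gene of CA3, was at -0.21 ± 0.11. The summed CA3 level was nonetheless lower without overlap, at 4349 to 4489 in controls and 3729 to 4344 in mutants.

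Markers of interneurons and glia, which the Camk2a transgene does not target, were examined in the same way. The shares over all tested genes were 1.77% called lower and 50.4% below 0. Of 17 interneuron markers none was called by DESeq2 or edgeR, with 4 at an unadjusted p under 0.05. In that list 14 of the 17 lay below 0, the median was -0.07 and Gad1 was at -0.20 ± 0.07 (adjusted p = 0.181). Of 10 astrocyte markers 2 fell by small amounts, Slc1a3, a glutamate transporter gene (7420 to 7690 against 6246 to 6690; -0.24 ± 0.07, adjusted p = 0.0321), and Aldoc (-0.31 ± 0.10, adjusted p = 0.0491), and neither was called by edgeR. Each of the 10 lay below 0 (median -0.19). In 6 of them every mutant lay below every control, an order that 11.1% of all tested genes showed. All 12 tested oligodendrocyte markers (median -0.20) and all 10 microglial markers (median -0.23) lay below 0 without a call by either tool. CBP-ifKO Sal 3 differed from the other mutants in these lists: the oligodendrocyte sum was 40733 to 40880 in the controls, 33485 and 33277 in the first pair of mutants and 42486 in the third. The microglial sum likewise was 3654 to 3941 in controls, 2851 and 3223 in that pair and 4056 in the third mutant. The part of these differences in the neuronal results was not tested. When CBP-ifKO Sal 3 was left out, 7 oligodendrocyte markers were called lower and the total count of lower genes was 530. The summed interneuron level was lower without overlap, at 14699 to 15412 in controls and 13577 to 14567 in mutants.

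**Figure D4:**
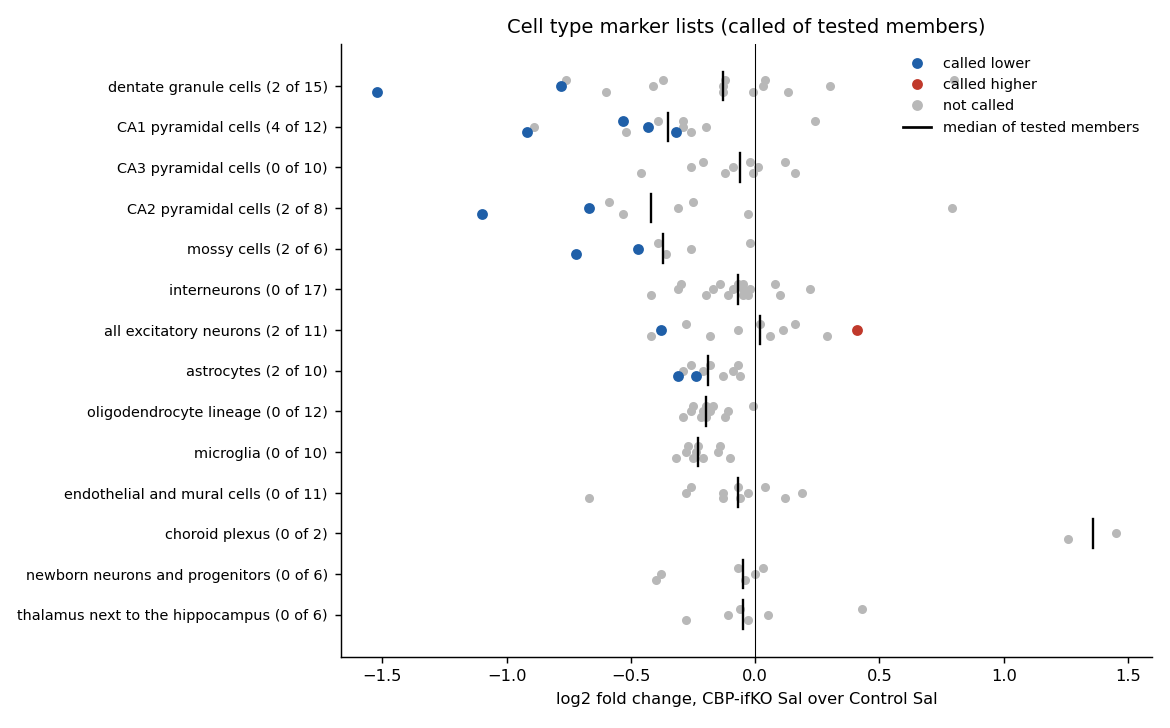
Log2 fold change of every tested member of the 14 cell type lists (1 point per gene; blue called lower, red called higher, grey not called; black bar, list median). CA1, CA2 and mossy cell medians lie at -0.35, -0.42 and -0.37, the interneuron median at -0.07, and the 2 tested choroid plexus genes lie above 0.

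Of the 40 genes called higher, Neurod2 was the only member of the cell type and function lists. Apart from Esr1, and leaving aside genes averaging under 50 normalized counts, the largest change was in Frem3, an extracellular matrix gene, at 31.2, 39.4 and 23.5 in controls and 83.3, 93.4 and 110.1 in mutants (1.62 ± 0.28, adjusted p = 3.22e-06). BC067074 was carried by 1 mouse, with 201 in CBP-ifKO Sal 1 against 66.5 and 87.2 in the other mutants and 50.6 to 57.9 in controls (1.17 ± 0.33), and its call was lost without that mouse, which held choroid plexus RNA, and in 12 of 15 alternatives in all. Spata1 (1.08 ± 0.26), the junction scaffold gene Mpp7 (0.85 ± 0.23), the telomerase-associated gene Tep1 (0.79 ± 0.24), Cast, the gene of the calpain inhibitor calpastatin (0.78 ± 0.17), the copine gene Cpne9 (0.76 ± 0.20), the methionine salvage gene Adi1 (0.75 ± 0.16), Fam229b (0.74 ± 0.18), the protocadherin gene Pcdhb4 (0.72 ± 0.21) and the coronin gene Coro6 (0.71 ± 0.19) completed the 12 largest increases. Pcdhb4 lost its call in 11 and Coro6 in 7 of 15 alternatives, and neither was called in PTZ0 (0.04 and 0.33) or PTZ45 (0.05 and 0.12). Tep1 lost its call in 9 of 14 alternatives, Cpne9 in 8 of 15, Mpp7 and Fam229b each in 7 of 15, and Spata1 in 6 of 14.

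Because CREB recruits CBP, the promoters of the lower genes were searched for the cAMP response element TGACGTCA, which reads the same on both strands, and for its core TGACG on either strand (CGTCA on the other), which the full element contains. RefSeq promoter windows (GRCm38.p6, 250 bases before to 50 after each start site) matched 188 of the 266 lower genes. The full element was found in 7 of these, or 3.72%, against 3.62% of the 10436 tested genes with a window and 2.03% of all 27025 genes of the promoter table. The core was found in 29.8% of the lower genes, 35.2% of the tested genes and 23% of all genes in the table. The share with the full element was thus close to that of tested genes, and the share with the core lay below it. The 7 genes were Btg2, Cds1, Dio2, Kif5c, Mturn, Pcsk1 and Ptpru. Neither the C1ql2 window, the 2 Pdyn windows nor the 7 Bdnf windows held the full element, and 1 Bdnf window held the core. Nptx2, Penk, Otof, Rgs14 and Grp had no window. These elements of 3 genes are shown in their promoter context, with the element in capitals, because they belong to genes with a role in peptide processing, growth arrest and thyroid hormone activation; each runs 5′ to 3′ on the gene's strand.
Pcsk1, chr13:75089719-75089846, plus strand: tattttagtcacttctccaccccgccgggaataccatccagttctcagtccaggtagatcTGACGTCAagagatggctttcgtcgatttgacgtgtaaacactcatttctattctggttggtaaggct
Btg2, chr1:134079254-134079381, minus strand: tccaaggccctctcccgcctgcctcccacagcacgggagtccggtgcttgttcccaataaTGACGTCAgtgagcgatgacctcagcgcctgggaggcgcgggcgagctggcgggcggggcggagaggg
Dio2, chr12:90739066-90739193, minus strand: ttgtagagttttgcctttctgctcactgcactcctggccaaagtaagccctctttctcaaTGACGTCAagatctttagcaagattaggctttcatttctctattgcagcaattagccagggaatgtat
The element ends 70 bases before the RefSeq start site in Pcsk1, 158 bases before it in Btg2 and 87 bases before it in Dio2, whose counts went from 951 to 1010 in controls to 659.9 to 754 in mutants (-0.50 ± 0.10, adjusted p = 1.12e-04). Dio2 was chosen after its values were seen.

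The Sal differences were found again in mice that shared no library with this comparison. In kindled mice given saline (PTZ0), all 266 genes called lower in Sal lay below 0, and 232 of them, or 87.2%, were called lower, against 5.25% of the 12752 genes tested there. They made up 34.6% of the genes called lower in PTZ0. In mice taken 45 min after PTZ, 265 of the 266 lay below 0 and 151, or 56.8%, were called lower, against 2.82% of the 15224 genes tested there; the exception was Npy2r, at 0.05 ± 0.11. Without Control PTZ45 1 the count called lower was 57, in a fit that left 1 control and assumed it to vary like the mutants. In all, 144 genes were called lower in each of the 3 treatments. The median log2 fold change of the 266 genes was -0.47 in Sal, where they were chosen, and -0.41 in both PTZ0 and PTZ45. Of the 40 genes called higher in Sal, all lay above 0 in both treatments, and 29 were called higher in PTZ0 (1.43% of tested genes) and 13 in PTZ45 (0.25%). Lane and genotype coincided in these comparisons too, with lanes 3 and 5 in PTZ0 and lanes 4 and 5 in PTZ45. Seizure history also differed by genotype in both, as described above.

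The leading genes had similar log2 fold changes in these animals. C1ql2 was at -1.52 in Sal, -1.73 in PTZ0 and -1.72 in PTZ45; Rgs14 at -1.10, -1.14 and -1.03; and Trpc6 at -0.78, -0.79 and -0.75. Penk was at -1.24, -1.29 and -1.58, and Nptx2 at -1.05, -1.29 and -1.58. The log2 fold changes that lay farthest from their Sal value after PTZ were those of Btg2, Junb and Ptgs2, the cyclooxygenase-2 gene. There Junb was at -2.97, Btg2 at -3.26 and Ptgs2 at -2.20, against -0.69, -0.61 and -0.44 in Sal. Serpina3n was at -1.19, -1.51 and -1.28. These differences from Sal were not tested, and the PTZ45 genotypes also differed in seizure history. A direct test of whether the effect of genotype differed between Sal and PTZ0 called 0 of 38110 genes (0%) by DESeq2, with 141 at an unadjusted p under 0.05, and 0 of 19639 by edgeR, with 374 at an unadjusted p under 0.05. This does not show that the effects were equal.

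**Figure D5:**
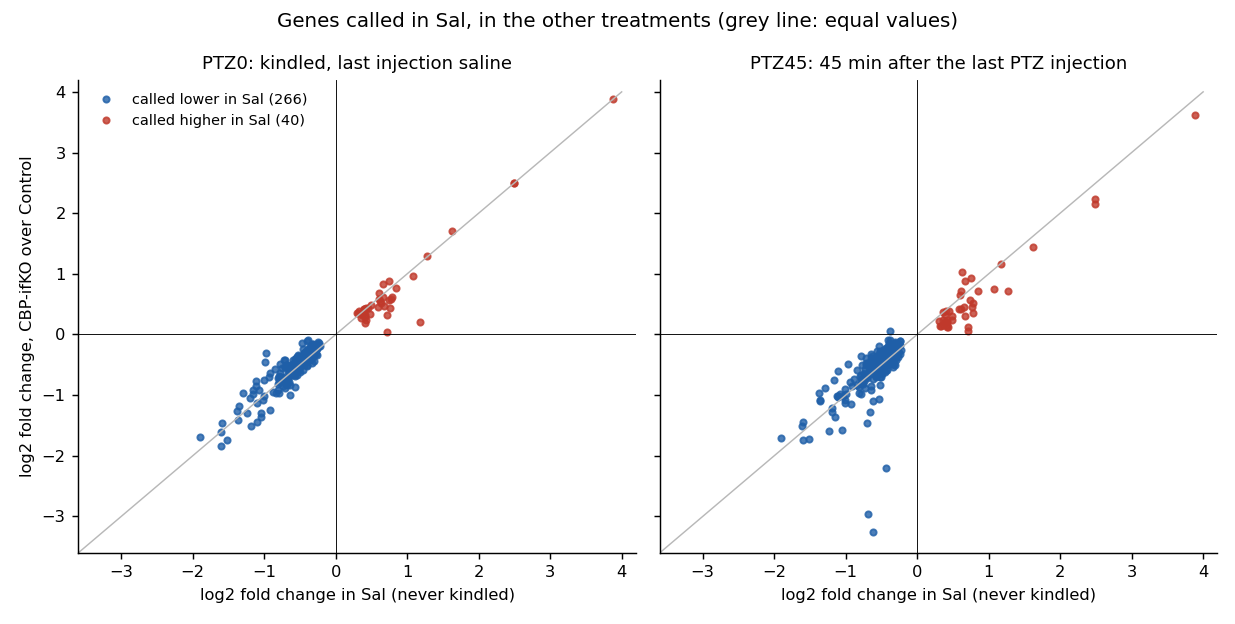
Log2 fold change of CBP-ifKO over Control for the 306 genes called in Sal, with the Sal value on the horizontal axis and the value in PTZ0 (left) or PTZ45 (right) on the vertical axis; each point is a gene, and the grey line marks equal values. In PTZ0 every gene keeps its sign, and in PTZ45 Npy2r crosses 0 while Junb, Btg2 and Ptgs2 lie far below the line.

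The number of called genes depended on the fit, and their direction did not in the alternatives run. Under each of the 15 alternatives, all 266 lower genes stayed below 0 and all 40 higher genes above 0. Most alternatives reused the same Sal libraries, where mutants and controls did not overlap in 265 of the 266 lower and all 40 higher genes. Such fits could hardly reverse a sign, so the kept direction is no separate support. Without any 1 library, between 112 and 530 genes were called lower. When Control Sal 2 and CBP-ifKO Sal 1, the libraries with choroid plexus RNA, were left out together, 68 genes were called lower and 12 higher, and the lower calls were 1 among CA1 markers, 1 among vesicle genes and 0 among neuropeptide receptor genes. With genotype and lane fitted over all treatments, calls remained for 62 of the 266 lower and 3 of the 40 higher genes. The medians of all 266 and all 40 were -0.45 and 0.51. That fit separated lane from genotype only by assuming equal treatment responses in both genotypes, whereas the study reports a more limited PTZ response in CBP-ifKO mice. It called 17 immediate early genes, against 2 in the fit of the Sal libraries alone. It therefore does not isolate the Sal effect from lane. Among the genes named here, Crebbp, Otof, Gm26644, 4921539H07Rik, C1ql2, Grp, Penk, Bdnf, Amz1, Rgs14, Rgs4, Wfs1, Trpc6, Camk1g, Camkk2, Hpcal4, Cacna1g, Htr2a, Sema3e, Psd3 and Esr1 were called under every alternative that gave them an adjusted p. Among the rest, Pdyn lost its call in 7 of 13 alternatives, Nptx2 in 5 of 14, Cck in 3 of 15 and Serpina3n in 1 of 15, the fit with lane.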

How the data were processed

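RNA of whole hippocampus was sequenced as single-end reads. The authors trimmed the reads with Trim Galore 0.6.4, aligned them with STAR 2.6.1 to mm10 (GRCm38), kept those of mapping quality above 10 and deposited raw counts per gene over Ensembl exons made with Rsubread. Of 18 count columns, 1 matched no sample and was not used. DESeq2 1.42.0 (R 4.3.3) was fitted to the 6 Sal libraries (two-sided Wald test, Benjamini-Hochberg adjustment with independent filtering, threshold 0.05), following the study's choice of DESeq2; PTZ0 and PTZ45 were fitted separately. Normalized counts use size factors of all 17 libraries. edgeR 4.0.16, TMM size factors, a GC correction, a low-count filter (10 counts or more in 2 or more libraries), a lane term, a replicate block and leaving out libraries were the alternatives. Replicates are separate mice. In simulated data for the Sal comparison (35911 genes), 56% of 1.5-fold and 86% of 2-fold changes were recovered, with 8 false calls. Changes were placed only in genes averaging 50 or more normalized counts. The simulation held no lane difference and no shifts shared among genes, such as choroid plexus RNA, so its rates need not hold for the real comparison. Members and lists were chosen with earlier results of these data known. The genes named were Crebbp, Ep300, Esr1, Arsi, Bdnf, Nptx2, Penk, Pdyn and C1ql2, the 12 largest changes in each direction among genes averaging 50 or more normalized counts whose groups did not overlap, up to 6 called genes of lowest adjusted p per list and up to 3 abundant markers per cell type list; others were chosen after their values were seen. Gene positions are from GENCODE M21 (GRCm38). Some called members of the lists are not reported here by name.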

Additional observations from a re-analysis of the deposited data

How the results depend on the processing

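Against 266 lower and 40 higher genes, a single fit of all 17 libraries called 487 and 127, edgeR 131 and 26, and genotype with lane as a term 128 and 3. With alternatives chosen after seeing the data, genotype over all treatments without lane called 2157 and 1449, and leaving out both libraries with choroid plexus RNA 68 and 12. Leaving out 1 library gave 112 (without Control Sal 2) to 530 (without CBP-ifKO Sal 3) lower and 15 to 90 higher calls. The cause of these differences was not tested. The GC correction (262 and 47), TMM (273 and 44) and the count filter (233 and 38) stayed near the counts given. With the replicate number as a block, 112 lower and 10 higher genes were called. Same-numbered mice deviated from their group means with correlations of -0.20, -0.20 and -0.04, so the numbers pair no mice. Of the 266 lower genes, 232 were called again in PTZ0 (166 to 227 without 1 library, 92 with the replicate block) and 151 in PTZ45 (57 to 141 without 1 library, where leaving out a control left 1 control assumed to vary like the mutants; 33 with the replicate block).

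Genes that were not called changed sign as follows. With lane as a term, Camk2a was at -0.07, Mbp at 0.00 and Csf1r at 0.07. Ttr was at -0.29 without the libraries with choroid plexus RNA and at -1.03 with the replicate block, Slc17a7 at -0.01 without Control Sal 1 (up to 0.13 without another library) and Fos at 0.14 without Control Sal 3 (down to -0.54). Depth was lowest in CBP-ifKO Sal 2 (5831992 counts).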

Other observations

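The genes below were grouped after their values were seen, and no list was tested. Of all tested genes, 1.77% were called lower and 0.267% higher. Among 8 tested copine genes, which code for calcium-dependent membrane-binding proteins, Cpne5 (-0.80 ± 0.18), Cpne8 (-0.55 ± 0.14), Cpne4 (-0.50 ± 0.11) and Cpne7 (-0.41 ± 0.10) fell while Cpne9 rose (0.76 ± 0.20), by DESeq2. By edgeR 1 of the 8 was called, and Cpne8 and Cpne9 each lost the call in 8 of 15 alternatives. Cpne7 was at -0.12 in PTZ0 and -0.08 in PTZ45 and was not called in either. Genes of insulin-like growth factor binding proteins also moved in both directions. Igfbp4 was at 613, 570.1 and 617 in controls and at 349.8, 322 and 332 in mutants (-0.84 ± 0.11, adjusted p = 2.63e-10), and Igfbp6, at a low level, fell as well (-1.36 ± 0.32). Igfbp5 was at 1158, 1358 and 1393 in controls and at 2183, 2195 and 1873 in mutants (0.67 ± 0.10, adjusted p = 1.01e-08), so that the groups of neither Igfbp4 nor Igfbp5 overlapped.

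The counts in this paragraph stand beside shares over all tested genes of 1.77% called lower and 0.267% called higher. Of 7 tested Wnt ligand genes, Wnt4, Wnt9a and Wnt7b (-0.56 ± 0.14) fell and none rose. Of 13 tested tubulin genes, Tubb2b (-0.49 ± 0.13), Tubb3 (-0.46 ± 0.12) and Tuba4a (-0.37 ± 0.11) fell by DESeq2, edgeR called 0, and near-identical copies make the split of reads among them uncertain. Of 4 tested long noncoding RNAs of the X chromosome, 3 rose by DESeq2 and 1 was called by edgeR. Xist, low in these male mice and sharing exons with its antisense gene, was at 23.4, 18.5 and 26.2 in controls and at 70.5, 58.1 and 37.7 in mutants (1.27 ± 0.36, adjusted p = 0.0231), a call lost in 7 of 12 alternatives. Firre was at 0.40 ± 0.09, and Ftx was at 0.30 ± 0.09 and lost its call in 9 of 15 alternatives. Acp1, an acid phosphatase gene, was at 279, 240.1 and 266 in controls and at 159, 145 and 166 in mutants (-0.73 ± 0.15, adjusted p = 3.73e-04), with -0.73 in PTZ0 and -0.73 in PTZ45.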
